A study of Homo sapiens with 12 samples.

Results

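Type I interferon response genes are the genes that cells switch on when they sense a virus or an interferon, and 51 of them, taken by symbol, are described here out of 29607 genes in the deposited table. All 51 symbols were found. The cells were KMS11, a human cell line established from multiple myeloma, and 12 RNA libraries made up 6 groups with 2 libraries each. In the knockdown, cells carried sh1 or sh2, a pair of hairpins against the kinase STK17B (genotype STK17B shRNA, no treatment). Inhibitor cells have the genotype label WT and the treatment label STK17B inhibitor. The shControl group is labelled WT with no treatment. Cells of the overexpression group carry an STK17B cDNA (genotype STK17B overexpression, no treatment), and Vector cells, labelled WT with no treatment, are their control. According to the series' design text the inhibitor was given to cells that carry the control hairpin, so the hairpin is common to the inhibitor and shControl groups. The compound, its dose and its time are not named in the labels. A vehicle is mentioned in the design text but no group is labelled as having received it, so an effect of the solvent cannot be told apart from one of the compound. Nothing in the labels says whether transduced cells were clones or pools, or whether the 2 libraries of a group came from separate cultures. What a p-value measures here is therefore the spread between these libraries, and that spread may be technical.

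Type I interferons bind a receptor made of IFNAR1 and IFNAR2, and the kinases JAK1 and TYK2 on that receptor then phosphorylate STAT2 and other STAT proteins. STAT2 and IRF9 are parts of the complex ISGF3, which binds interferon-stimulated response elements in promoters. Its target genes encode proteins that sense, bind or degrade viral RNA, conjugate the ubiquitin-like protein ISG15 or feed back on the pathway, and interferon alpha has been used as a treatment of multiple myeloma.

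The values were TPM, a transcript share that is corrected for gene length and scaled to 1 total in each library, so that the depth of the libraries is unknown. A gene was tested where 2 or more libraries reached 1 TPM, which 12731 genes did. Of the 51 genes 44 passed this filter, and 33 reached 1 TPM in every library. Tests used limma on log2(TPM + 1) with Benjamini-Hochberg adjustment over all tested genes, and a call is an adjusted p below 0.05. With 2 libraries against 2 an exact permutation test cannot go below p = 0.333, and with 4 against 2 not below 0.0667. In bulk RNA, fewer cells of a kind and less RNA per cell cannot be told apart.

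STK17B averaged 13.2 ± 1.76 TPM in the knockdown (SD, n = 4), 23.7 ± 1.79 with the inhibitor (n = 2) and 27.3 ± 0.238 in shControl (n = 2). It averaged 89.3 ± 6.79 TPM with overexpression and 29.8 ± 2.33 in Vector (n = 2 each). Plasma cell markers summed to 1409 to 1681 TPM in the knockdown and 1557 to 1593 with the inhibitor, against 2116 to 2139 in shControl, and to 1923 to 1938 TPM with overexpression, against 2315 to 2321 in Vector. Among them SDC1, which encodes the plasma cell surface proteoglycan CD138, stood at 24.1 to 34.5 TPM in the knockdown, against 57.7 and 59.4 in shControl, while CD38 was low in every library (0.127 to 1.47 TPM). These sums moved with the groups, and their part in the results was not tested. FGFR3, which the translocation of this line activates, stood at 795 to 1417 TPM. B cell markers summed to at most 1.02 TPM and monocyte markers to at most 1.79 TPM, while CD3D of T cells and CLEC4C of plasmacytoid dendritic cells were at 0 in every library. Other markers of these cells were not, since CD3E stood at 3.23 to 7.74 TPM, in a T and NK cell sum of at most 8.10 TPM, and IL3RA at 9.26 to 21.1 TPM. The columns of the control libraries carry no group name in the table. Which of them is shControl and which is Vector was inferred from library numbers in the labels, so counts of called genes are given against both.

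One library stood apart in these genes. In Vector replicate 2, 7 of the 51 genes were more than 2-fold above every other library, and no gene of the 51 was so in any of the other libraries. IFITM3 had 14.0 TPM there and at most 1.80 TPM in the other 11 libraries, and IFITM1 had 10.9 TPM against at most 2.82 TPM elsewhere. The others were IFITM2 at 2.62, RSAD2 at 0.768, TRIM22 at 0.591, OAS3 at 0.558 and HERC6 at 0.250 TPM. IFITM proteins block virus entry at membranes. IFITM1, IFITM2 and IFITM3 are related neighbours within 19.9 kb on chromosome 11, and some reads may have been split between them in the authors' counting. Over all genes that reached 0.5 TPM somewhere, 0.374% were more than 2-fold above every other library in Vector replicate 2, within a range of 0.0553% to 0.374% over the 12 libraries, and of the 7 genes HERC6 did not reach that level. CHI3L1 stood at 25.9 TPM in that library and at 0.550 to 1.98 TPM in the others, and GFAP at 2.17 against at most 0.942 TPM. CCL2 at 3.46, CXCL11 at 2.14 and VCAM1 at 2.06 TPM were also high there. In the other libraries they reached at most 0.448, 0.211 and 0.245 TPM. All of these were picked after their values were seen. In a list of 12 astrocyte genes drawn up after these values were seen, the sum without GJA1, which is abundant in every library, was 34.9 TPM there and 2.45 to 5.18 TPM elsewhere. CHI3L1 alone made up 25.9 of these 34.9 TPM. Of the 12 genes 8 were highest in Vector replicate 2, SPARCL1 among them by a small margin over Vector replicate 1. S100B, BCAN, SLC1A2 and GJA1 were not, with S100B at 0.0871 TPM there and 0.270 TPM in overexpression replicate 1. This count describes a list drawn up from the same values and is not a test. The share of all genes that were highest in Vector replicate 2 is not given. The part of these genes in the results was not tested, and counts of called genes against Vector are given with and without this library.

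**Figure D1:**
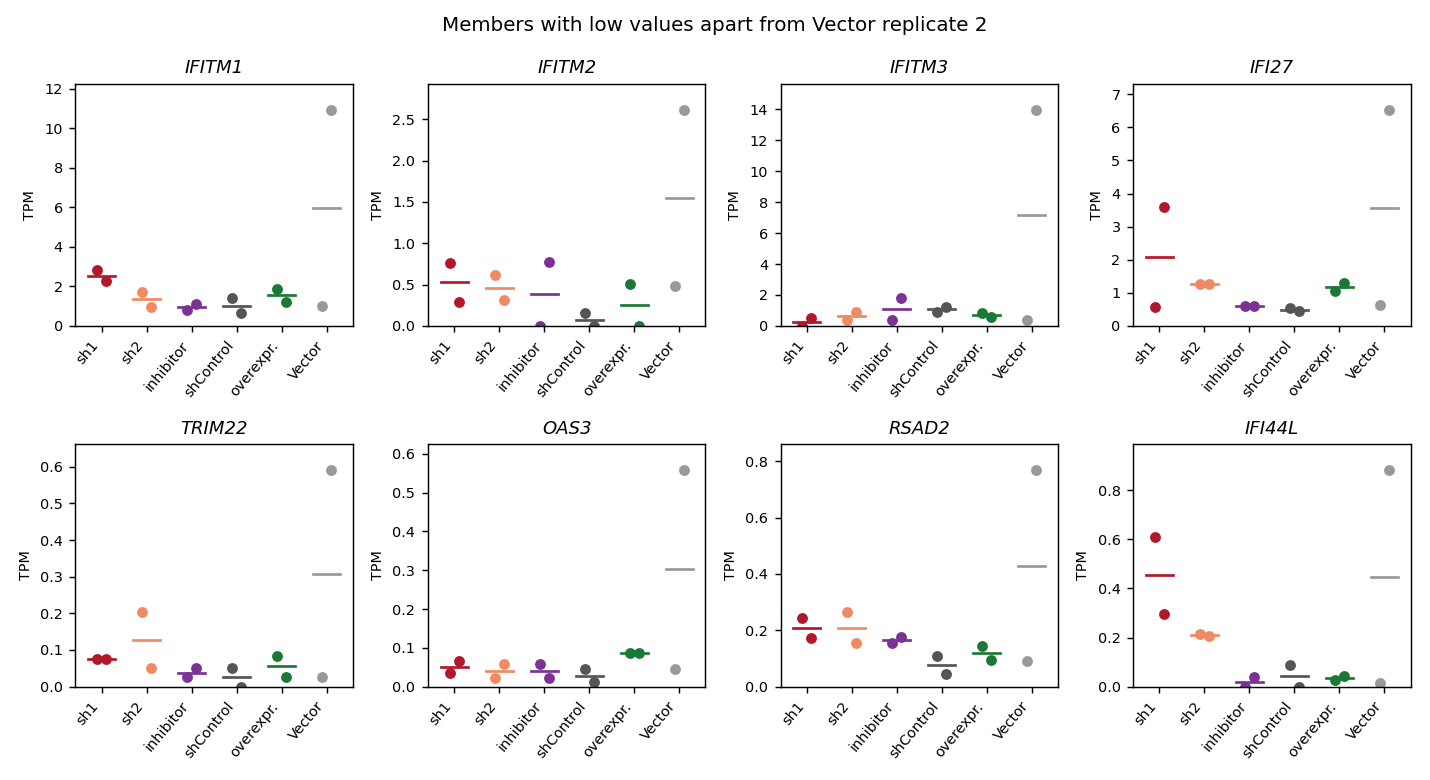
TPM of 8 interferon response genes in each library, by group; points are the 2 libraries of a group and the line is their mean. The replicate at 14.0 TPM for IFITM3 and 10.9 TPM for IFITM1 is Vector replicate 2, and the other libraries lie at or below 2.82 TPM for these genes.

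The promoters of many of these genes hold the letters of the element that ISGF3 binds. RefSeq promoter windows on GRCh38.p14, 250 bases before to 50 bases after a gene start, were found for 41 of the 51 genes. The letters GAAA, any 2 bases (NN) and GAAA again, which read TTTC, NN and TTTC on the other strand, occurred in 26 of these 41 genes (63.4%), against 4.38% of all 27305 genes with a window. By window they occurred in 30 of 57 (52.6%), against 3.57% of all 35116 windows of this length. Another motif, TTCNNNGAA, which is its own reverse complement and is the core of sites for STAT dimers, occurred in 12 of the 41 genes (29.3%), against 9.38% of all genes. The 2 motifs overlap in part of their letters, since both contain GAA. The 5 windows shown belong to the genes with the largest knockdown changes among those whose windows hold the letters. The window of IRF9 held no such match. Capitals mark this run of 10 letters on either strand, and each window reads along its gene's own strand, plus for IFI44 and MX1 and minus for PARP9, DDX60 and IFI6.
IFI44 (chr1:78649539-78649838): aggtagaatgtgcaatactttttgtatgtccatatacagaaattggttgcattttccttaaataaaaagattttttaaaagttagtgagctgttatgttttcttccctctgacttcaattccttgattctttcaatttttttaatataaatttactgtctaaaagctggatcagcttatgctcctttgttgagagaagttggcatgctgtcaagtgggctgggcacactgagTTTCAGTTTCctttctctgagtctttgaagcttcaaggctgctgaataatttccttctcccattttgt
PARP9 (chr3:122564251-122564550): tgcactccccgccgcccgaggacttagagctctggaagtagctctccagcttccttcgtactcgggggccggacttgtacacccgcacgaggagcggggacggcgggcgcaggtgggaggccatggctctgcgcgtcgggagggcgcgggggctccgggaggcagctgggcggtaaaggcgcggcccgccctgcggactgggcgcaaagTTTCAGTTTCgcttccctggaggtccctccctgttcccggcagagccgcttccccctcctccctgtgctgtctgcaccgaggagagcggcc
MX1 (chr21:41420308-41420607): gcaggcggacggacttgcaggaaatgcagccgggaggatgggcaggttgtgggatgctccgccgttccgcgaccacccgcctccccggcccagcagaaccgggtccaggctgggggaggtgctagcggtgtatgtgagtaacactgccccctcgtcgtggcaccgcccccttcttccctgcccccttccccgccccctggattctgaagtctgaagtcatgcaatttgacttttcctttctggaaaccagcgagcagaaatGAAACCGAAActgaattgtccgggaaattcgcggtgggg
DDX60 (chr4:168318703-168319002): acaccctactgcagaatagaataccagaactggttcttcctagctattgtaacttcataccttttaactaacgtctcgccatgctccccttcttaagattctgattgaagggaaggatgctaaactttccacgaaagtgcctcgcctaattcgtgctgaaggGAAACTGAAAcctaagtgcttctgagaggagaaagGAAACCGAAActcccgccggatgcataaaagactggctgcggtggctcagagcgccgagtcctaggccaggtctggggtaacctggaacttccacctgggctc
IFI6 (chr1:27672143-27672442): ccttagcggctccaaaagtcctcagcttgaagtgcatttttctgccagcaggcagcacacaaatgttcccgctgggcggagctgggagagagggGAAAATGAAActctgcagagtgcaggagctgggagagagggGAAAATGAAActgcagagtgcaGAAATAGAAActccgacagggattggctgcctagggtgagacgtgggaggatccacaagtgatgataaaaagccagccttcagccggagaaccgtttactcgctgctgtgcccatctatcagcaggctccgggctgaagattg

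IFI6 held 3 such matches and DDX60 held 2, while IFI44, PARP9 and MX1 held 1 each in the window shown. The PARP9 match lies at chr3:122564332-122564341. On the PARP9 strand it begins 41 bases before the gene start of this RefSeq window. On the opposite strand it begins 6 bases before the gene start of the DTX3L window. In the GENCODE annotation it lies inside both gene spans, PARP9 at chr3:122527924-122564577 and DTX3L at chr3:122564238-122575203. The other RefSeq window of PARP9 held no match. PARP9 and DTX3L, whose proteins form a complex, thus share 1 stretch of these letters. Among the genes higher in the knockdown than in shControl 15 of 24 with a window held the letters (62.5%), and among those tested and not higher 8 of 12 did (66.7%). A match is a run of letters and not a measured binding site.

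Lower STK17B came with higher levels of most interferon response genes relative to shControl. Of the 44 tested genes 29 were higher in the knockdown and 2 were lower, while 26.2% of all tested genes were called higher and 20.2% lower. The count lower was 1 without shControl replicate 2 and 4 without sh1 replicate 1. Their median log2 change was 0.48, beside 0.03 over all tested genes. With a change of 1.5-fold or more also required, a rule chosen after seeing the data, 15 were higher and 0 lower (against 4.11% and 1.62% of all tested genes). Among the 33 genes that reached 1 TPM in every library, DDX60 not among them, 23 were higher and 2 lower than in shControl. From Vector 10 of the 33 were higher and 8 lower. Relative to shControl IFI44, a microtubule-associated interferon-induced protein, rose most, by 1.60 log2 units, followed by IRF9 at 1.42. Against Vector the picture was smaller, with 12 of the 44 higher and 9 lower, beside 18.6% and 29.4% of all tested genes and medians of 0.07 and -0.05. Without Vector replicate 2 these counts were 13 and 5, and with other scalings they were 16 and 7 (median of ratios) and 20 and 7 (quantile). By the 1.5-fold rule 7 were higher and 1 lower than in Vector, against 1.93% and 4.63% of all tested genes, and 10 and 1 without Vector replicate 2.

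**Figure D2:**
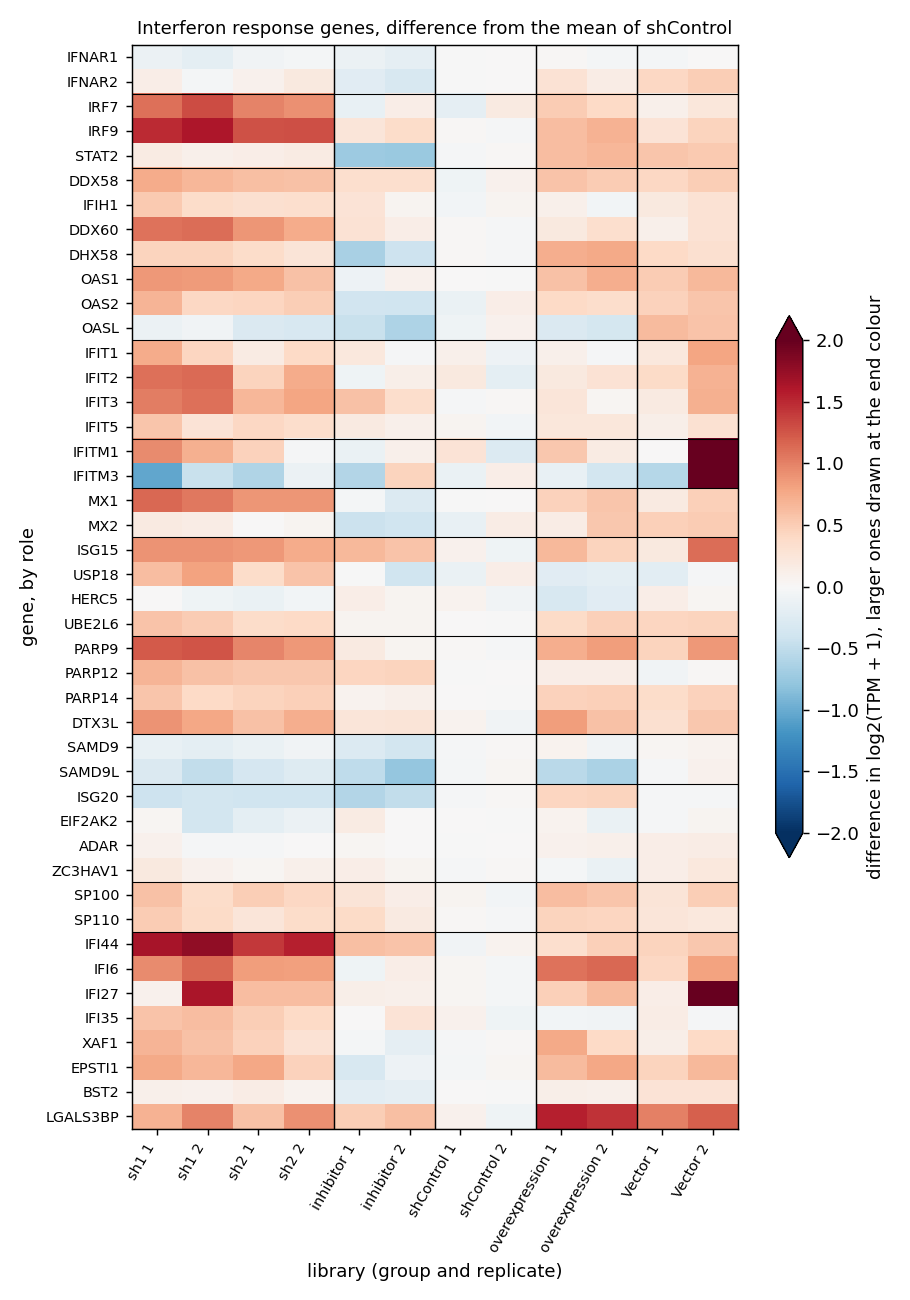
Difference of each of the 44 tested interferon response genes from the mean of shControl, in log2(TPM + 1), by library and ordered by role; red is higher and blue is lower. Differences beyond 2 are drawn at the end colour, which applies to IFITM1, IFITM3 and IFI27 in Vector replicate 2. The knockdown libraries at the left are red for IRF9, IRF7, MX1, PARP9 and IFI44, and the inhibitor libraries are blue for STAT2.

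The 2 receptor chains did not pass the test between knockdown and shControl. IFNAR1 stood at 23.5 and 22.4 TPM with sh1, 24.6 and 24.9 with sh2 and 23.7 and 22.6 with the inhibitor, against 25.6 and 25.8 in shControl, and at 26.2 and 25.1 with overexpression against 24.9 and 26.0 in Vector. The other chain, IFNAR2, stood at 115 and 102 TPM with sh1, 112 and 121 with sh2 and 89.5 and 83.6 with the inhibitor, against 104 and 105 in shControl, and at 129 and 117 with overexpression against 139 and 147 in Vector. Inhibitor libraries were the lowest for IFNAR2 and Vector libraries the highest, and for IFNAR1 all 4 knockdown libraries lay below both shControl libraries. Log2 changes between knockdown and shControl were -0.11 for IFNAR1 and 0.10 for IFNAR2 (limma adjusted p = 0.054 and 0.22). With sh1 alone IFNAR1 was lower than in shControl (-0.16, limma adjusted p = 0.020), and with sh2 its change was -0.05 (adjusted p = 0.40). Its change from Vector in the knockdown was -0.09 (adjusted p = 0.089). IFNAR2 was lower in the knockdown than in Vector by a log2 change of -0.35 (SE 0.06, limma adjusted p = 0.0010).

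The kinases bound to this receptor, from a wider list of pathway genes, were higher in the knockdown. JAK1 had 63.4 and 56.2 TPM with sh1 and 53.3 and 52.5 with sh2, against 37.7 and 38.7 in shControl and 40.8 and 43.5 in Vector, with log2 changes of 0.55 and 0.41 from the 2 controls (SE 0.05, limma adjusted p = 3.8e-05 and 2.3e-04). TYK2 changed by 0.46 and 0.45 (SE 0.03, limma adjusted p = 6.0e-06 and 8.2e-06). Both kinases were also called higher with the inhibitor, JAK1 by 0.32 from shControl and 0.18 from Vector, and TYK2 by 0.25 and 0.24. With overexpression TYK2 was higher than in Vector by 0.19 (limma adjusted p = 0.0037), and JAK1 at 0.03 did not pass. Interferon genes themselves were at the edge of detection. Of 21 listed interferons none passed the filter, the highest value was 1.03 TPM for IFNL1 in Vector replicate 2, and IFNB1 was listed at 0 in 11 libraries and at 0.130 TPM in Vector replicate 1.

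IRF9 and STAT2, both parts of ISGF3, followed different patterns. IRF9, the DNA-binding subunit, encoded at chr14:24161053-24166565 on the plus strand of GRCh38 in the GENCODE annotation, stood at 26.8 and 29.3 TPM with sh1, 22.9 and 23.1 with sh2 and 10.7 and 11.7 with the inhibitor, against 9.03 and 8.67 in shControl, and at 14.1 and 14.9 with overexpression against 10.97 and 12.5 in Vector. All 4 knockdown libraries lay above all 8 others. IRF9 was higher in the knockdown than in shControl by 1.42 log2 units (SE 0.06, limma adjusted p = 4.0e-07) and higher than in Vector by 1.06 (SE 0.06, limma adjusted p = 2.6e-06). STAT2, at chr12:56341597-56360155 on the minus strand, stood at 28.99 and 27.9 TPM with sh1, 28.3 and 29.05 with sh2 and 15.3 and 15.01 with the inhibitor, against 25.5 and 26.2 in shControl, and at 40.2 and 41.4 with overexpression against 38.5 and 37.5 in Vector. The knockdown thus lay between its 2 possible controls, and the inhibitor libraries lay below every other library. The log2 change of STAT2 in the knockdown was 0.14 from shControl (SE 0.03, limma adjusted p = 0.0081) and -0.40 from Vector (SE 0.03, limma adjusted p = 2.0e-05), and the call against shControl was lost without shControl replicate 1 (0.12, adjusted p = 0.078).

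IRF7, at chr11:612553-615999 on the minus strand, amplifies interferon production in virus-infected cells. It had 10.7 and 12.5 TPM with sh1, 9.86 and 9.24 with sh2 and 3.94 and 4.97 with the inhibitor, against 3.81 and 5.20 in shControl, and 6.75 and 6.18 TPM with overexpression against 4.86 and 5.42 in Vector. The knockdown libraries were again above all others. Log2 changes in the knockdown were 1.08 from shControl (SE 0.12, limma adjusted p = 7.4e-05) and 0.91 from Vector (SE 0.12, limma adjusted p = 2.1e-04). IRF1, a related factor of the wider list, was higher in the knockdown than in shControl (0.30, limma adjusted p = 9.8e-04), while its change from Vector was 0.07 (adjusted p = 0.28).

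**Figure D3:**
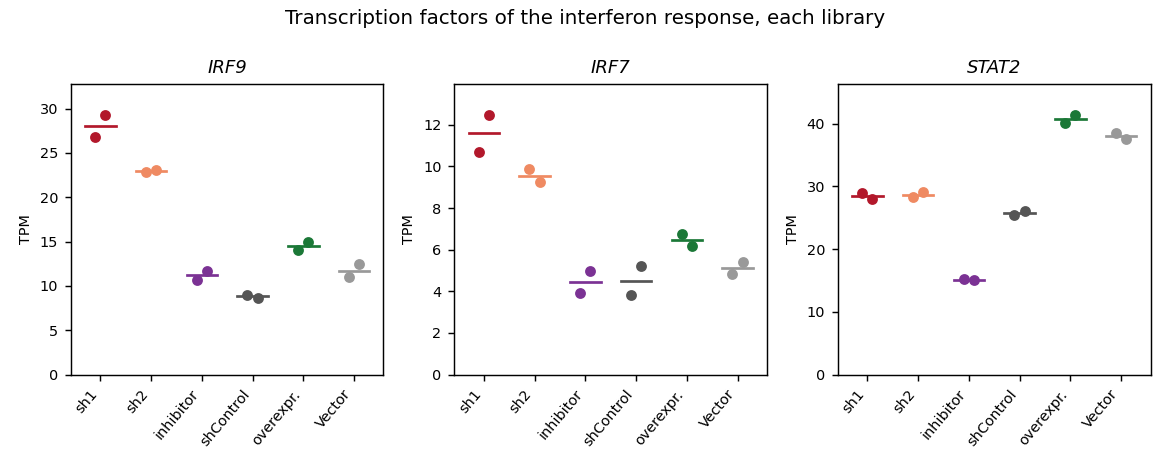
TPM of IRF9, IRF7 and STAT2 in each library, by group; points are the 2 libraries of a group and the line is their mean, and each axis starts at 0. IRF9 and IRF7 are highest with sh1 and sh2, and STAT2 is lowest with the inhibitor at 15.3 and 15.01 TPM.

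All 4 listed RNA helicases that sense viral RNA or assist in it were higher in the knockdown than in shControl. DDX60, a helicase that promotes RIG-I signalling, had 1.41 and 1.44 TPM with sh1, 1.08 and 0.893 with sh2 and 0.386 and 0.235 with the inhibitor, against 0.147 and 0.112 in shControl, and 0.294 and 0.428 TPM with overexpression against 0.215 and 0.377 in Vector. These are low levels, and DDX60 reached 1 TPM only in hairpin libraries. It thus passed the filter through the group in which it was high, and its calls are not independent of that. Its log2 change was 0.96 from shControl (SE 0.11, limma adjusted p = 1.3e-04) and 0.76 from Vector (SE 0.11, limma adjusted p = 5.0e-04). DDX58, which encodes RIG-I itself, IFIH1, which encodes MDA5, and DHX58, which encodes the regulator LGP2, rose by 0.65, 0.39 and 0.38 log2 units relative to shControl. Against Vector the same 3 had log2 changes of 0.20, 0.14 and 0.01, none past the test.

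The RNA-targeted effector families were split. MX1, a GTPase that traps viral nucleocapsids, had 29.03 and 27.0 TPM with sh1, 24.0 and 24.0 with sh2 and 12.2 and 10.2 with the inhibitor, against 12.4 and 12.7 in shControl, and 17.7 and 18.96 TPM with overexpression against 14.3 and 17.9 in Vector. Every knockdown library exceeded every other one. MX1 rose by 0.99 log2 units relative to shControl (SE 0.09, limma adjusted p = 2.3e-05) and by 0.66 relative to Vector (SE 0.09, limma adjusted p = 2.7e-04). MX2, its neighbour on chromosome 21, had a log2 change of 0.09 from shControl that did not pass and one of -0.40 from Vector (limma adjusted p = 0.032). The second was lost with quantile scaling and without any 1 of the Vector, sh1 or sh2 libraries, for example without Vector replicate 2 (-0.38, adjusted p = 0.13).

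OAS enzymes make the oligoadenylates that activate the nuclease RNase L. OAS1 had 22.7 and 22.4 TPM with sh1, 21.0 and 18.5 with sh2 and 11.1 and 12.8 with the inhibitor, against 12.1 and 11.9 in shControl, and 18.5 and 20.5 TPM with overexpression against 17.5 and 19.3 in Vector. Knockdown, overexpression and Vector libraries lay in 1 range above those of shControl and the inhibitor. OAS1 rose by 0.76 log2 units relative to shControl (SE 0.07, limma adjusted p = 3.3e-05), and its change from Vector was 0.18 (adjusted p = 0.062). OAS2 behaved likewise, with log2 changes of 0.50 from shControl and -0.01 from Vector, and OAS3 was below the filter. OASL, a relative without the enzyme activity, had 4.35 and 4.51 TPM with sh1, 3.74 and 3.63 with sh2 and 3.25 and 2.77 with the inhibitor, against 4.45 and 5.14 in shControl, and 3.73 and 3.54 TPM with overexpression against 7.94 and 7.62 in Vector. Vector libraries were the highest and inhibitor libraries the lowest, and OASL changed by -0.80 from Vector (SE 0.07, limma adjusted p = 3.2e-05) and by -0.20 from shControl (adjusted p = 0.054).

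Among the IFIT proteins, IFIT1 binds viral RNA that lacks the host's cap methylation. Of the 4 listed, IFIT3 rose by 0.90, IFIT2 by 0.86 and IFIT5 by 0.40 log2 units relative to shControl, while IFIT1 at 0.43 did not pass (limma adjusted p = 0.071), and the IFIT5 call was lost without shControl replicate 2 (0.35, adjusted p = 0.077). IFIT3, with 5.75 to 8.17 TPM in the knockdown and 3.18 and 3.35 TPM in shControl, was also higher than in Vector (0.45, limma adjusted p = 0.023). The other 3 had changes of 0.32 (IFIT2), 0.19 (IFIT5) and -0.07 (IFIT1) from Vector, none past the test. The IFIT3 call depended on single libraries, since it was lost without Vector replicate 1 (0.18, adjusted p = 0.26), sh1 replicate 2 (0.43, adjusted p = 0.055) or sh2 replicate 2 (0.42, adjusted p = 0.059). The genes IFIT1, IFIT2, IFIT3 and IFIT5 are related neighbours within 137 kb on chromosome 10, so their counts may share reads. For IFITM1 and IFITM3, the tested members of the membrane family, log2 changes in the knockdown were 0.53 and -0.55 from shControl with SE of 0.55 and 0.74, and -0.77 and -1.70 from Vector with the same SE, and none passed.

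In the ISG15 system, ISG15 is conjugated to proteins by a cascade that includes the E2 enzyme UBE2L6 and the E3 ligase HERC5, and USP18 removes it and blocks signalling at IFNAR2. UBE2L6 had 108 and 103 TPM with sh1, 93.3 and 95.7 with sh2 and 75.0 and 75.5 with the inhibitor, against 73.1 and 71.7 in shControl, and 95.1 and 101 TPM with overexpression against 97.6 and 99.4 in Vector. The shControl and inhibitor libraries lay below all others. UBE2L6 rose by 0.46 log2 units relative to shControl (SE 0.03, limma adjusted p = 5.8e-06), and its change from Vector was 0.02. USP18, at 4.82 to 6.88 TPM in the knockdown against 3.11 and 3.99 in shControl and 2.90 and 3.43 in Vector, was higher than in both (0.58 and 0.71, limma adjusted p = 0.0047 and 0.0016). Without shControl replicate 1 its change from that group was 0.44 and no longer passed (adjusted p = 0.062). ISG15 rose by 0.85 log2 units relative to shControl, a call that was lost without shControl replicate 2 (0.76, adjusted p = 0.055), and HERC5 at -0.07 did not pass. From Vector the changes were 0.20 for ISG15 and -0.16 for HERC5, and neither passed (limma adjusted p = 0.44 and 0.086).

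PARP9, a mono-ADP-ribosyltransferase family member, had 3.49 and 3.59 TPM with sh1, 2.79 and 2.50 with sh2 and 1.18 and 1.01 with the inhibitor, against 0.960 and 0.897 in shControl, and 2.18 and 2.43 TPM with overexpression against 1.63 and 2.51 in Vector. Of the knockdown libraries 3 lay above all Vector libraries, and sh2 replicate 2 lay just below Vector replicate 2. Its log2 change was 1.08 from shControl (SE 0.12, limma adjusted p = 6.8e-05) and 0.42 from Vector (SE 0.12, limma adjusted p = 0.014). Without Vector replicate 1 the second value was 0.21 and did not pass (adjusted p = 0.16). DTX3L, the ubiquitin ligase that shares its promoter region with PARP9, rose by 0.75 relative to shControl, PARP12, a PARP that restricts RNA viruses, by 0.58 and PARP14, their neighbour on chromosome 3, by 0.47. PARP12 was nearly as different from either control, with a change of 0.61 from Vector (SE 0.04, limma adjusted p = 3.6e-06), whereas PARP14 at 0.05 did not differ detectably from Vector.

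IFI44, at chr1:78649796-78664078 on the plus strand, had 7.30 and 7.99 TPM with sh1, 5.99 and 6.73 with sh2 and 3.01 and 2.90 with the inhibitor, against 1.51 and 1.77 in shControl, and 2.31 and 2.67 TPM with overexpression against 2.59 and 2.84 in Vector. Knockdown libraries were highest and shControl libraries lowest, with no overlap. The changes were 1.60 from shControl (SE 0.08, limma adjusted p = 9.5e-07) and 1.10 from Vector (SE 0.08, limma adjusted p = 8.9e-06). IFI6, a small protein of the endoplasmic reticulum and mitochondria, had 63.4 and 73.0 TPM with sh1, 58.6 and 57.9 with sh2 and 30.4 and 35.7 with the inhibitor, against 33.3 and 31.5 in shControl, and 70.1 and 72.8 TPM with overexpression against 43.4 and 57.2 in Vector. It was high in both the knockdown and the overexpression libraries. IFI6 rose by 0.94 log2 units relative to shControl (SE 0.10, limma adjusted p = 8.2e-05) and by 0.33 relative to Vector (SE 0.10, limma adjusted p = 0.025), a call lost without Vector replicate 1 (0.14, adjusted p = 0.28), sh1 replicate 2 (0.28, adjusted p = 0.067) or sh2 replicate 1 (0.33, adjusted p = 0.054).

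The other genes higher in the knockdown than in shControl were LGALS3BP (0.80), EPSTI1 (0.66), IFI35 (0.52), XAF1 (0.51), the nuclear body proteins SP100 (0.46) and SP110 (0.37), and BST2 (0.10). From Vector the change of IFI35 was 0.46 and passed (limma adjusted p = 0.0013), while those of LGALS3BP (-0.30), EPSTI1 (0.11), XAF1 (0.25), SP100 (0.08) and SP110 (0.14) did not. The XAF1 call was lost without either shControl library (0.48 and 0.53, adjusted p = 0.076 and 0.050). BST2, or tetherin, which holds budding virus at the cell surface, was the most abundant of the 51 genes. Its gene lies at chr19:17402939-17405648 on the minus strand. BST2 had 417 and 410 TPM with sh1, 433 and 410 with sh2 and 335 and 342 with the inhibitor, against 389 and 388 in shControl, and 423 and 418 TPM with overexpression against 471 and 469 in Vector. The knockdown libraries lay above shControl and below Vector, with log2 changes of 0.10 (SE 0.02, limma adjusted p = 0.0077) and -0.17 (SE 0.02, limma adjusted p = 4.5e-04). The first of these calls was lost with median-of-ratios scaling (0.07, adjusted p = 0.11) and without shControl replicate 2 (0.10, adjusted p = 0.053).

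A pair of interferon response genes was lower in the knockdown than in either control, beside 15.1% of all tested genes. ISG20, a 3′ exonuclease at chr15:88636153-88656483 on the plus strand that degrades viral RNA, had 87.5 and 90.5 TPM with sh1, 88.5 and 88.2 with sh2 and 77.6 and 82.1 with the inhibitor, against 115 and 118 in shControl, and 157 and 158 TPM with overexpression against 115 and 115 in Vector. The overexpression libraries were highest and the hairpin and inhibitor libraries lowest. ISG20 fell by 0.39 log2 units relative to shControl (SE 0.03, limma adjusted p = 8.5e-06) and by 0.37 relative to Vector (SE 0.03, limma adjusted p = 1.4e-05). SAMD9L, a relative of the antiviral protein SAMD9, had 12.8 and 10.9 TPM with sh1, 12.4 and 13.1 with sh2 and 10.9 and 8.87 with the inhibitor, against 15.4 and 16.2 in shControl, and 10.5 and 9.87 TPM with overexpression against 15.6 and 16.8 in Vector. Both control groups were above all other libraries. SAMD9L fell by 0.34 log2 units relative to shControl (SE 0.08, limma adjusted p = 0.0084) and by 0.37 relative to Vector (SE 0.08, limma adjusted p = 0.0053), and these calls were lost without shControl replicate 2 (-0.31, adjusted p = 0.068) and without Vector replicate 2 (-0.32, adjusted p = 0.054).

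**Figure D4:**
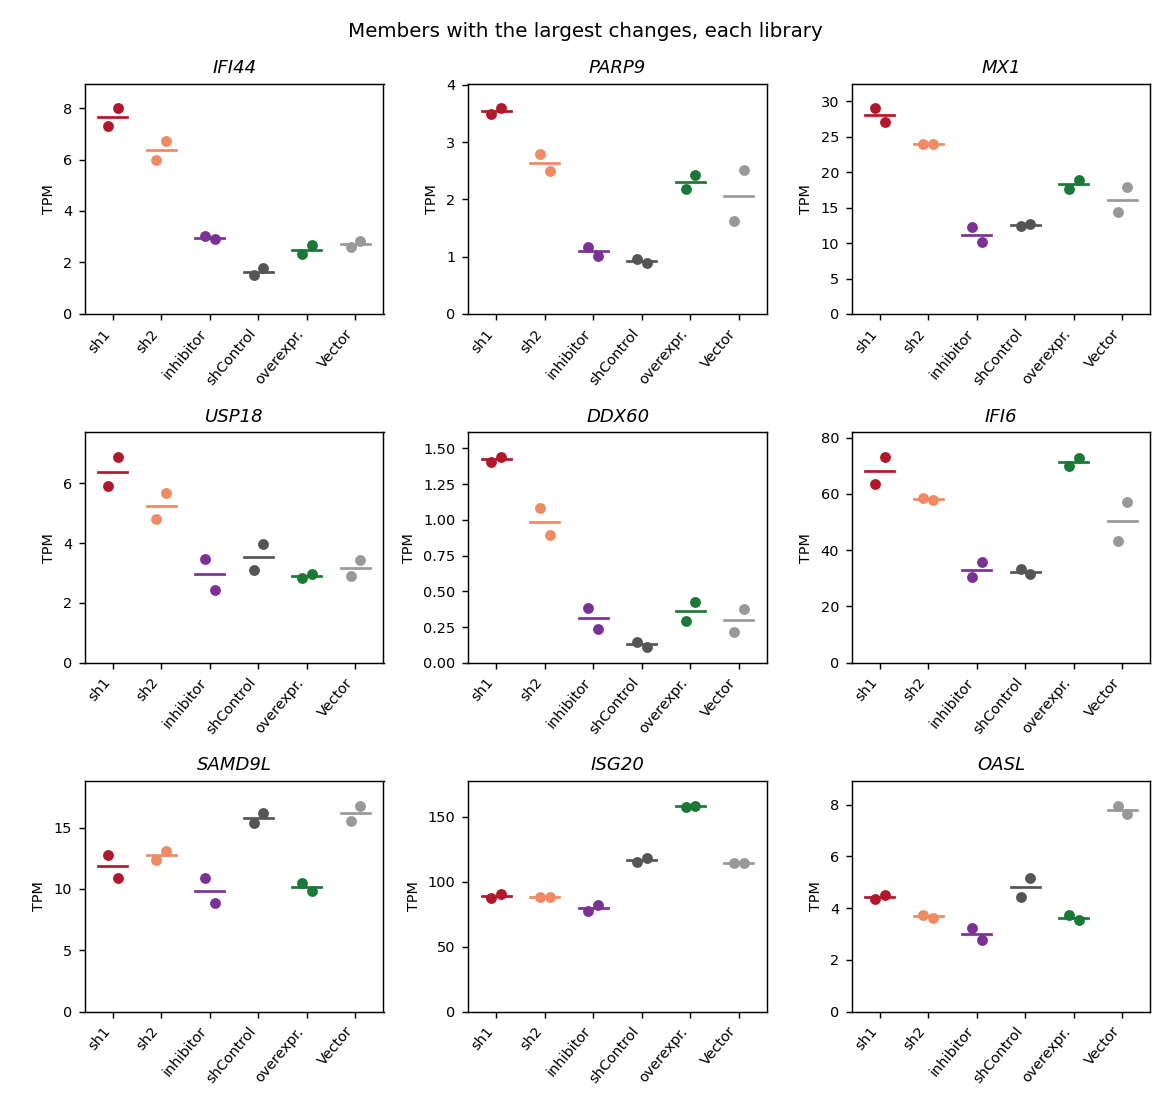
TPM of 9 interferon response genes in each library, by group; points are the 2 libraries of a group, the line is their mean and each axis starts at 0. IFI44, PARP9, MX1, USP18 and DDX60 are highest with the hairpins, IFI6 is high with the hairpins and with overexpression, and SAMD9L, ISG20 and OASL have other orders.

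ADAR, the RNA-editing enzyme, EIF2AK2, the kinase PKR, and ZC3HAV1, the zinc-finger antiviral protein, did not pass the test between knockdown and shControl. ADAR had 189 and 175 TPM with sh1, 175 and 178 with sh2 and 184 and 179 with the inhibitor, against 178 and 178 in shControl, and 190 and 191 TPM with overexpression against 195 and 198 in Vector. Its log2 change in the knockdown was 0.01 from shControl (SE 0.03, limma adjusted p = 0.85). ADAR was lower in the knockdown than in Vector by a log2 change of -0.13 (limma adjusted p = 0.0069), a call lost with median-of-ratios scaling (-0.06, adjusted p = 0.068) and without Vector replicate 2 (-0.12, adjusted p = 0.058). EIF2AK2 and ZC3HAV1 changed by -0.18 and -0.07 from Vector, and neither passed. SAMD9 was also lower than in Vector (-0.19, limma adjusted p = 0.030), and this call was lost with median-of-ratios scaling (-0.13, adjusted p = 0.066), with quantile scaling (-0.07, adjusted p = 0.27) and without either Vector library, among others.

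Set against both controls, 12 genes were higher in the knockdown than in shControl and higher than in Vector, namely IFI44, IRF9, IRF7, MX1, DDX60, PARP9, IFI6, IFIT3, DTX3L, PARP12, IFI35 and USP18. Of all 12731 tested genes 1651 (13%) were called higher against both. DDX60 is among the 12, although it passed the filter only through hairpin libraries. DTX3L lost its call against Vector without Vector replicate 1 (0.20, adjusted p = 0.24), sh1 replicate 1 (0.28, adjusted p = 0.071) or sh2 replicate 2 (0.28, adjusted p = 0.080). A further 15 were higher than in shControl with no call against Vector, and STAT2 and BST2 were higher than in shControl but lower than in Vector. Of all tested genes 26.2% were higher than in shControl, whatever their result against Vector. Those also lower than in Vector made up 1.79% of all tested genes, and those also higher than in Vector 13%. The comparisons share the knockdown libraries.

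**Figure D5:**
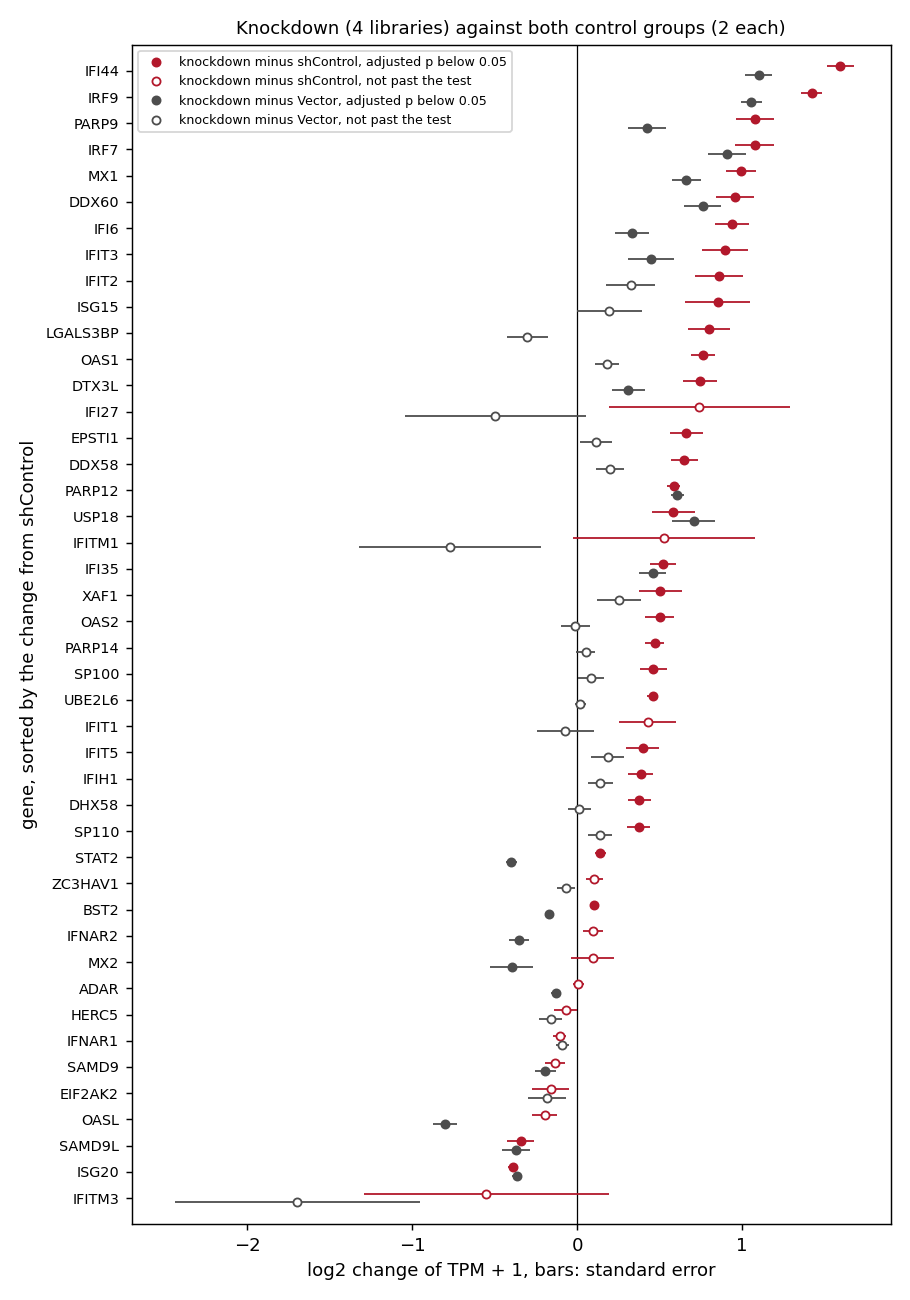
Log2 change of TPM + 1 in the knockdown from shControl (red) and from Vector (grey) for the 44 tested genes, sorted by the change from shControl; bars are standard errors and filled points passed the test. Most red points lie to the right of 0 and the grey points lie further left, with IFI44 at 1.60 and 1.10 and STAT2 at 0.14 and -0.40.

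The 2 hairpins gave similar counts. Relative to shControl 30 genes were higher and 3 lower with sh1, beside 23.7% and 21.3% of all tested genes, and 28 were higher and 3 lower with sh2, beside 22.0% and 13.4%. By the 1.5-fold rule 19 were higher and 0 lower with sh1 (4.82% and 2.73% of all tested genes), and 15 and 0 with sh2 (3.53% and 1.01%). The count lower was 1 without shControl replicate 2 for either hairpin, 1 with sh1 without sh1 replicate 2, and 1 with sh2 without either sh2 library. IRF9 rose by 1.56 with sh1 and 1.28 with sh2, and IFI44 by 1.71 and 1.48. Between sh2 and sh1 limma called 0 of the 44 genes in either direction (against 1.16% higher and 0.385% lower of all tested genes), with 1 higher and 6 lower at an unadjusted p below 0.05, and the count was 0 under every alternative run, the 1.5-fold rule among them (0.0785% and 0.0236% of all tested genes). The values with sh2 were nevertheless mostly below those with sh1, in 36 of the 44 genes. The median difference was -0.12 log2 units, beside 0.03 over all tested genes. STK17B averaged 14.6 ± 0.141 TPM with sh2 and 11.8 ± 1.26 TPM with sh1 (n = 2 each). That difference of 0.29 log2 units did not pass (limma adjusted p = 0.12), and a link to the interferon response genes was not tested.

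Relative to shControl the inhibitor gave fewer calls among these genes than the knockdown did, and more of them lower. Of the 44 genes 7 were higher and 10 lower, beside 28.0% and 11.8% of all tested genes, with a median log2 change of 0.04 beside 0.08 over all tested genes. The 1.5-fold rule left 1 higher and 2 lower, against 1.81% and 2.71% of all tested genes. STAT2 fell by 0.73 log2 units (SE 0.04, limma adjusted p = 2.1e-06), the largest change of the 44. SAMD9L fell by 0.63, ISG20 by 0.54, DHX58 by 0.53 and OASL by 0.53 log2 units. IFI44 rose by 0.59 (SE 0.09, limma adjusted p = 0.0012) and LGALS3BP, a secreted glycoprotein, by 0.55. LGALS3BP had 1.64 and 1.84 TPM with the inhibitor, against 0.996 and 0.759 in shControl, and its call was lost without shControl replicate 2 (0.45, adjusted p = 0.091) or inhibitor replicate 2 (0.49, adjusted p = 0.076). PARP12 rose by 0.44 (SE 0.04, limma adjusted p = 9.6e-05), with 28.1 and 28.4 TPM with the inhibitor against 20.6 and 20.7 in shControl. IRF9 rose by 0.31 (limma adjusted p = 0.0084), a call lost without shControl replicate 2 (0.28, adjusted p = 0.052) or inhibitor replicate 2 (0.25, adjusted p = 0.060), and IRF7 at -0.01 and MX1 at -0.16 did not pass. The count of genes higher was 4 without shControl replicate 1 and 3 without either shControl replicate 2 or inhibitor replicate 2.

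Against Vector, the inhibitor libraries had 1 gene higher and 21 lower, beside 26.0% and 27.0% of all tested genes, and 2 and 16 without Vector replicate 2. By the 1.5-fold rule 0 were higher and 9 lower, against 2.73% and 8.28% of all tested genes, and 0 and 8 without Vector replicate 2. PARP12 was the gene higher against both controls (0.46 from Vector), beside 19.5% of all tested genes. Of all tested genes 10.6% were lower with the inhibitor than in both controls. Another 0.919% were higher than in shControl and lower than in Vector. The 10 genes lower than in shControl were also lower than in Vector. Among them IFNAR1 and IFNAR2 lost the call against shControl without shControl replicate 2 (-0.14 and -0.27, adjusted p = 0.12 and 0.052) or inhibitor replicate 2 (-0.11 and -0.22, adjusted p = 0.15 and 0.074), and IFNAR1 also without shControl replicate 1 (-0.15, adjusted p = 0.094). The IFNAR1 call against Vector (-0.13) was lost without Vector replicate 2 or inhibitor replicate 2 (-0.10 each, adjusted p = 0.19 each). LGALS3BP stood between the controls, higher than shControl but lower than Vector (-0.56), and the second call was lost without Vector replicate 2 (-0.46, adjusted p = 0.068) or inhibitor replicate 1 (-0.50, adjusted p = 0.057).

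The knockdown and the inhibitor were each set against the same shControl libraries, so their changes are not independent. DDX58, IFI44, IFIT3, IRF9, LGALS3BP, PARP12 and SP110 were called higher in both, ISG20 and SAMD9L lower in both, and BST2, DHX58, OAS2 and STAT2 higher in the knockdown but lower with the inhibitor. Of all tested genes 26.2% were called higher in the knockdown and 28.0% with the inhibitor. The share with each joint pattern was not counted, so these lists cannot be called particular to the interferon response genes. Some inhibitor calls rested on single libraries. The DDX58 change of 0.34 was 0.25 without shControl replicate 1 (adjusted p = 0.14), and 0.34 without either inhibitor library (adjusted p = 0.077 and 0.068). The SP110 change of 0.29 was 0.31 and 0.27 without either shControl library and 0.19 without inhibitor replicate 1 (adjusted p = 0.066, 0.097 and 0.16). The OAS2 change of -0.39 was -0.26 without shControl replicate 2 and -0.40 and -0.38 without either inhibitor library (adjusted p = 0.10, 0.052 and 0.057). The IFIT3 change of 0.47 (limma adjusted p = 0.042) did not pass without any 1 of the shControl, inhibitor, sh1 or sh2 libraries, at 0.35 to 0.58 (adjusted p = 0.050 to 0.22). Tested directly, inhibitor libraries had lower levels than knockdown libraries for 31 of the 44 genes and higher levels for 0, beside 21.6% and 30.9% of all tested genes. A change of 1.5-fold or more was reached by 15 of those lower, against 4.41% of all tested genes lower and 2.32% higher by that rule. At an unadjusted p below 0.05 limma gave 32 lower and 1 higher, and 2 were higher after quantile normalization and 1 without the mean-variance trend or without sh1 replicate 1. The largest of these differences were those of MX1 at -1.15, IRF9 at -1.11 and IRF7 at -1.08 log2 units (SE 0.09, 0.06 and 0.12, limma adjusted p = 6.6e-06, 1.1e-06 and 5.0e-05). PARP12 differed by -0.15 and SP110 by -0.08, which did not pass (adjusted p = 0.35).

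With overexpression of STK17B 5 of the 44 genes were higher than in Vector and 6 lower, beside 26.6% and 10.3% of all tested genes, with a median log2 change of -0.02 beside 0.08. By the 1.5-fold rule 0 were higher and 2 lower, against 4.61% and 0.683% of all tested genes, and 1 and 1 without Vector replicate 2. Without Vector replicate 2 the counts were 8 higher and 4 lower, without Vector replicate 1 they were 2 and 11, and without overexpression replicate 2 they were 3 and 4. Median-of-ratios scaling gave 3 and 9, and quantile scaling 3 and 10. OASL fell by 0.92 log2 units (SE 0.09, limma adjusted p = 6.0e-05) and SAMD9L by 0.62 (SE 0.10, limma adjusted p = 0.0011). HERC5 had 4.40 and 4.75 TPM with overexpression against 6.44 and 5.96 in Vector and fell by 0.37 (limma adjusted p = 0.0060). IFI6 rose by 0.51 (SE 0.12, limma adjusted p = 0.0087), a call lost without Vector replicate 1 (0.32, adjusted p = 0.052), and ISG20 rose by 0.46 (SE 0.03, limma adjusted p = 1.7e-05). DHX58 had 9.60 and 9.83 TPM with overexpression against 7.42 and 6.99 in Vector and rose by 0.39 (limma adjusted p = 0.0053). IFI44, IRF7 and MX1, at -0.09, 0.28 and 0.18, did not pass, and the IRF9 change of 0.29 (limma adjusted p = 0.013) was lost without Vector replicate 1 (0.20, adjusted p = 0.096), without overexpression replicate 2 (0.25, adjusted p = 0.078) and with median-of-ratios or quantile scaling (0.18 and 0.17).

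Against shControl, 24 genes were higher with overexpression and 3 lower, beside 44.9% and 13.7% of all tested genes, and by the 1.5-fold rule 10 were higher and 1 lower, beside 14.6% and 1.37%. All tested genes together had a median log2 change of 0.18 in this comparison, which became -0.01 with median-of-ratios scaling and -0.03 with quantile scaling. With those scalings 18 and 16 of the 44 were higher and 8 and 9 lower. HERC5, OASL and SAMD9L were lower with overexpression than in either control, and DHX58, IFI6, IRF9, ISG20 and PARP12 were higher than in either. Of all tested genes 7.8% were lower than in both controls and 23.8% higher than in both. The PARP12 change of 0.16 from Vector was 0.12 without Vector replicate 1 and 0.16 without either overexpression library, and it passed in none of these (adjusted p = 0.13, 0.077 and 0.071), nor under other scalings (0.06 with median of ratios, 0.04 with quantile).

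The knockdown effect minus the overexpression effect was positive for 25 of the 44 genes and negative for 1, beside 11.4% and 18.5% of all tested genes. By the 1.5-fold rule it was positive for 16 and negative for 1, beside 2.43% and 4.71%, and without Vector replicate 2 for 12 and 1. IFI44 had the largest difference of effects at 1.69 (SE 0.13, limma adjusted p = 1.9e-05), followed by IFIT3 at 1.20, IFIT2 at 1.16 and IRF9 at 1.13 among those that passed. ISG20 was the gene with a negative one, at -0.85 (SE 0.04, limma adjusted p = 2.8e-06), as it fell in the knockdown and rose with overexpression. SAMD9L, lower in both, had a difference of effects of 0.27, short of the threshold (adjusted p = 0.14).

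The 2 control groups differed in these genes as well. Vector libraries were higher than shControl libraries for 22 of the 44 and lower for 0, beside 21.4% and 7.86% of all tested genes, with a median log2 difference of 0.40 beside 0.09. By the 1.5-fold rule 4 were higher and 0 lower, beside 3.63% and 0.134%, and 2 and 0 without Vector replicate 2. At an unadjusted p below 0.05 limma gave 28 higher and 0 lower. Without Vector replicate 2 the count higher was 14, and 18 were higher and 2 lower with median-of-ratios scaling, 16 and 1 with quantile scaling. LGALS3BP differed most among the called genes, with 2.77 and 3.30 TPM in Vector against 0.996 and 0.759 in shControl, and with 2.04 and 2.75 with sh1, 1.82 and 2.53 with sh2 and 4.49 and 4.10 with overexpression. Its log2 difference between Vector and shControl was 1.10 (SE 0.15, limma adjusted p = 6.5e-04). PARP9 (0.66), IFI6 (0.61), OASL (0.60), OAS1 (0.58) and STAT2 (0.54) were also higher in Vector. EPSTI1, at 12.1 and 14.0 TPM in Vector against 8.33 and 8.80 in shControl, was higher by 0.55, a call lost without Vector replicate 2 (0.45, adjusted p = 0.057). EPSTI1 stood at 15.2 and 14.1 TPM with sh1 and 15.3 and 12.2 with sh2, so that its knockdown level differed from shControl (0.66) and not detectably from Vector (0.11, adjusted p = 0.37).

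The 7 genes that did not pass the filter were IFI44L, IFITM2, OAS3, RSAD2, HERC6, CMPK2 and TRIM22. Outside Vector replicate 2 their highest value was 0.796 TPM, that of CMPK2 with sh1. CMPK2, a nucleotide kinase next to RSAD2 on chromosome 2, had 0.621 and 0.796 TPM with sh1, 0.581 and 0.739 with sh2 and 0.201 and 0.183 with the inhibitor, against 0.164 and 0.234 in shControl, and 0.285 and 0.185 TPM with overexpression against 0.321 and 0.356 in Vector. All 4 knockdown values lay above the others, at a level where no test was made. IFI44L, the neighbour of IFI44, had 0.610 and 0.298 TPM with sh1 and 0.216 and 0.205 with sh2, against 0.0887 TPM and a value listed at 0 in shControl. Its highest value was that of Vector replicate 2, the library in which 6 of the 7 genes, all but CMPK2, were highest.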

How the data were processed

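RNA of 12 KMS11 libraries was made from poly(A)-selected, stranded preparations, per the labels' protocols. The deposited values are TPM per gene computed by the authors. The submitters' processing notes name RSEM 1.3.1, Bowtie2 2.3.4.3, HISAT, DESeq2 1.4.5 and GRCh38.p13 and give no roles. Depth is not given by TPM, so no counting interval could be set. TPM values were tested with limma 3.58.1 in R 4.3.3 on log2(TPM + 1), with 1 mean per group over all 6 groups and Benjamini-Hochberg adjustment, and the procedure was checked on simulated data. A fold on this scale understates changes of low genes. The genes and lists were chosen with earlier results of these data known. Values in every library are given for IRF7, IRF9, STAT2, IFNAR1 and IFNAR2, the 5 genes with the highest mean TPM, and the 6 called genes with the largest change in each of 4 comparisons (knockdown, inhibitor and Vector against shControl, overexpression against Vector). Others shown were chosen after their values were seen. Alternatives were other pseudocounts, filters, rescalings, models, a replicate block, exchange of the control columns, a fold rule and leaving out each library. Gene positions come from the GENCODE annotation and promoters from RefSeq. One further gene of the pathway is not reported here.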

Additional observations from a re-analysis of the deposited data

How the results depend on the processing

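Of the 124 calls of single genes in 6 comparisons (knockdown, inhibitor and Vector against shControl, and knockdown, inhibitor and overexpression against Vector), pseudocounts of 0.1 and 0.5 changed none, and a filter at 5 TPM changed none of the 100 it left to test. Calls of single genes in the other comparisons were not repeated. Over all alternatives, of 2682 repeated calls 2464 kept their side of the threshold, 197 lost it and 21 reversed. Leaving out 1 library at a time gave 25 to 30 higher and 1 to 4 lower for knockdown against shControl, 26 to 31 and 1 to 4 for sh1, 19 to 28 and 1 to 3 for sh2, 3 to 8 and 7 to 11 for the inhibitor, 19 to 24 and 2 to 3 for overexpression against shControl, and 14 to 26 and 0 for Vector against shControl. Against Vector the ranges were 2 to 8 and 4 to 11 for overexpression, 8 to 13 and 5 to 10 for the knockdown and 1 to 2 and 16 to 26 for the inhibitor. Inhibitor against knockdown gave 0 to 1 and 24 to 33, and the difference of effects 20 to 29 and 1. With the control columns exchanged, counts against shControl were 12 higher and 9 lower for the knockdown, 14 and 9 for sh1, 8 and 8 for sh2, 1 and 21 for the inhibitor and 5 and 6 for overexpression. Against Vector they were 29 and 2 for the knockdown, 7 and 10 for the inhibitor and 24 and 3 for overexpression, and the difference of effects gave 7 and 18. The exchange reversed OAS2 (-0.0100), STAT2 (-0.40), BST2 (-0.17) and LGALS3BP (-0.30) for knockdown against shControl, IRF9 (-0.058), DDX58 (-0.11) and LGALS3BP (-0.56) for the inhibitor, and BST2 (0.11) and IFNAR2 (0.22) for overexpression against Vector. It reversed MX2 (0.095), STAT2 (0.14), BST2 (0.10), ADAR (0.0081) and IFNAR2 (0.095) for knockdown against Vector. For inhibitor against Vector it reversed IFI6 (0.023), IFIT2 (0.015), PARP9 (0.12), PARP14 (0.084), LGALS3BP (0.55), UBE2L6 (0.055) and ADAR (0.027). The 1.5-fold rule left 15 higher and 0 lower for the knockdown, 19 and 0 for sh1, 15 and 0 for sh2, 1 and 2 for the inhibitor, 10 and 1 for overexpression and 4 higher for Vector, all against shControl. Against Vector it left 0 and 2 for overexpression, 7 and 1 for the knockdown and 0 and 9 for the inhibitor, with 15 lower for inhibitor against knockdown and 16 higher for the difference of effects. Rescaling by the median of ratios gave 5 lower for the knockdown and 8 lower for overexpression against shControl, 3 higher for overexpression against Vector and 2 lower for Vector. Quantile normalization gave 5 lower for the knockdown, 5 lower for sh2, 9 lower for overexpression and 1 lower for Vector against shControl. Against Vector it gave 3 higher and 10 lower for overexpression, 20 higher for the knockdown and 2 higher for the inhibitor, and it gave 2 higher for inhibitor against knockdown. A fit to only the groups compared gave 2 higher for overexpression against Vector, and a fit with no trend 1 higher for inhibitor against knockdown. Causes beyond the construction of each alternative were not tested. The differences between replicate 1 and replicate 2 of a group were correlated with those of another group, over 15 pairs of groups. These correlations ran from -0.10 to 0.14. With 2 libraries per group they cannot show whether the numbers pair samples. With the replicate block the knockdown kept counts of 29 and 2 against shControl, sh1 had 29 and 3, sh2 28 and 3, the inhibitor 6 and 11, overexpression 23 and 3 and Vector 21 and 0. Against Vector the block gave 5 and 6 for overexpression, 12 and 9 for the knockdown and 1 and 21 for the inhibitor, with 0 and 31 for inhibitor against knockdown and 24 and 1 for the difference of effects. TPM values carry no depth, which limits what can be said of genes near 1 TPM.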

Other observations

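Of 125 listed genes of the wider interferon pathway outside the 51, 92 were tested, and 44 were higher and 16 lower in the knockdown than in shControl, beside 26.2% and 20.2% of all tested genes. With the inhibitor 25 were higher and 25 lower than in shControl (28.0% and 11.8% of all tested genes). With overexpression 22 were higher and 16 lower than in Vector (26.6% and 10.3%), and 17 and 13 without Vector replicate 2. In Vector 28 were higher and 9 lower than in shControl (21.4% and 7.86%), and 20 and 5 without Vector replicate 2. The shares higher with the inhibitor and with overexpression were near those of all tested genes. Among 7 other receptor chains and kinases 5 were higher and 0 lower in the knockdown. Of 11 inhibitors of the pathway 5 were higher and 3 lower. SOCS1, which blocks JAK kinases, had log2 changes of 0.44 in the knockdown and 0.41 with the inhibitor against shControl, and of -0.44 with overexpression against Vector (limma adjusted p = 0.0021, 0.0080 and 0.0063), the last lost without Vector replicate 1 (-0.36, adjusted p = 0.052). UNC93B1, which carries nucleic-acid sensing receptors to endosomes, fell by 0.49 in the knockdown relative to shControl. TMEM173, which encodes the DNA-sensing adaptor STING, fell by 0.98 with the inhibitor (limma adjusted p = 1.1e-05).

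Of 25 listed genes that respond to interferon gamma or IRF1, 19 were tested, and 11 were higher and 2 lower in the knockdown than in shControl. With the inhibitor 6 were higher and 9 lower, and with overexpression 3 were higher and 9 lower than in Vector (2 and 7 without Vector replicate 2), beside the shares of all tested genes given above. CASP1, the inflammatory caspase, rose by 1.13 in the knockdown relative to shControl and by 0.62 relative to Vector, and GBP3, a guanylate-binding protein, by 1.23 and 0.63. CXCL10, a chemokine, fell by 0.84 with the inhibitor and by 0.97 with overexpression, each against its own control (limma adjusted p = 0.0021 and 0.0011). These genes were picked from the list after their values were seen.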
